A study of Mus musculus with 16 samples.

Results

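The genes of the citric acid cycle, of the reactions that refill it and of the malate-aspartate shuttle were examined in ventricular myocytes of mice under pressure overload. The list held 31 genes, found by symbol among the 35682 genes of the deposited count table, and each matched 1 row. All animals had undergone TAC (transverse aortic constriction, in which a band around the aorta makes the left ventricle work against a higher pressure) and were studied 9 weeks later. The groups were 8 wild-type (WT) littermates and 8 animals labelled B3AR-Tg (B3AR is the usual short form of beta-3 adrenergic receptor), so every control had been operated too and no unoperated animal was included. The promoter and species of the transgene, and the age, sex and strain of the animals, were not given in the sources used here. Each library is labelled as 1 biological replicate with its own identifier. The myocytes were isolated by Langendorff perfusion, that is through the aorta of the excised heart, and kept in culture for an hour before lysis.

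The citric acid cycle is the mitochondrial pathway in which acetyl-CoA from fatty acids, ketones, amino acids and pyruvate is oxidised to carbon dioxide, and its dehydrogenases supply the electrons used by the respiratory chain. The heart depends on it for nearly all of its ATP. Anaplerotic enzymes replace intermediates that leave the cycle, and the malate-aspartate shuttle carries the electrons of cytosolic NADH into mitochondria, which the inner membrane does not let NADH cross itself.

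Promoter sequences are shown for 3 genes on which the results turn. They are the only members that passed the test, Sdha and Slc25a12, and Slc25a13, the close relative of Slc25a12 that did not. Each line gives the 250 bases upstream of the RefSeq transcription start on GRCm38.p6, read 5′ to 3′ on the gene's strand, with a CACGTG motif in capitals.
Sdha, chr13:74350241-74350490, minus strand: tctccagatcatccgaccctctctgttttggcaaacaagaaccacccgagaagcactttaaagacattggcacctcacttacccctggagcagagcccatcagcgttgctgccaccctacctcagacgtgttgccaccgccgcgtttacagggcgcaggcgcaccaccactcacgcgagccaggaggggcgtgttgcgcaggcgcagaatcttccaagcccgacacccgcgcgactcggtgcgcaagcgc
Slc25a12, chr2:71367756-71368005, minus strand: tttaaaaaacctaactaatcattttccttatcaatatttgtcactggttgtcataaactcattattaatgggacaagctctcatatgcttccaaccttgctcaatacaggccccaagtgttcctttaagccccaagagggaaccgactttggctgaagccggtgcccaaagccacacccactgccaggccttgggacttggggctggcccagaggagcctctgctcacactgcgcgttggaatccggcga
Slc25a13, chr6:6217174-6217423, minus strand: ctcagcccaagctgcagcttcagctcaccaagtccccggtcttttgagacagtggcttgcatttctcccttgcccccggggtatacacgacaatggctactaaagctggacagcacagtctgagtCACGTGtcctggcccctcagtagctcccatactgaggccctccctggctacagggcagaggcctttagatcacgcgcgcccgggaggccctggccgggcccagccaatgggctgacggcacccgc
RefSeq windows of 300 bases, 250 before to 50 after the start, matched 28 of the 31 genes with 36 windows, some of which overlap within a gene. On either strand CACGTG, the E-box, was found in 6 of these 36 windows, from 4 genes (Ogdh, Pcx, Slc25a1 and Slc25a13), and in 7.15% of all 32851 windows. The ETS motif CCGGAAG was in 5 windows (Dlst, Idh3b, Idh3g, Sdhb and Sdhd) and in 8.86% of all. The oestrogen-related receptor motif TNAAGGTCA was in 1 window (Sdhd) and in 1.28% of all, and the NRF1 motif was in 0 windows and in 0.971% of all. The windows of Sdha and Slc25a12 held none of the 4 motifs in the form searched. The NRF1 motif was searched as 1 fixed string, so sites that differ from this string by 1 base were not counted. The Sdha sequence shown above holds such sites. How often they occur in the other windows was not tested, so a lack of NRF1-type sites cannot be read from this search.

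Library totals ranged from 5985335 to 14365864 counts, and the 56 pairs of libraries within a genotype differed by a chi-square of at least 5.82 per gene, where sampling noise alone gives about 1. The mouse gene Adrb3 held 0 to 4 counts in every library of either genotype, so it does not separate the groups, and since the species of the transgene is not given it does not check the labels. Adgrb3, which encodes an adhesion receptor of another family, held 0 to 3 counts in WT libraries and 247 to 723 counts in B3AR-Tg libraries, so it separated the groups as labelled. Its relation to the transgene is not given in the sources used here. Summed cardiomyocyte markers lay between 72939 and 98615 CPM (a library's counts relative to its TMM-adjusted total) in WT animals and between 80550 and 116130 CPM in B3AR-Tg animals, and 1 of the 10 (Ryr2) was higher in B3AR-Tg by the test below. Markers of other cells were scarce but differed with genotype. The 6 fibroblast markers summed to between 38.7 and 159.6 CPM in WT and between 10.2 and 57.0 CPM in B3AR-Tg, and 4 of the 6 (Col1a1, Col1a2, Dcn and Postn) were lower. The 7 endothelial markers summed to between 78.7 and 125.9 CPM in WT and between 36.9 and 149.9 CPM in B3AR-Tg, and 2 of the 7 (Emcn and Pecam1) were lower. Of 5 mural markers none passed, with sums of 84.6 to 160.3 CPM in WT and 47.1 to 140.6 CPM in B3AR-Tg. The 5 leukocyte markers summed to at most 5.56 CPM and the 4 adipocyte markers to at most 0.883 CPM in any library. No marker of any list was at 0 in all animals. In RNA from whole preparations, fewer cells of a type and less RNA per cell cannot be told apart.

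The 31 genes together took 1.18% ± 0.0747 (SD, n = 8) of the counts in WT libraries and 1.35% ± 0.115 in B3AR-Tg libraries. These are shares of unscaled library totals. With scaling by library totals alone the median log2 fold change of all tested genes was 0.08, and 0.01 with TMM, so the shares also hold that shift. All 31 passed the filter on low counts. Only Sdha, the catalytic subunit of succinate dehydrogenase, and Slc25a12, a mitochondrial aspartate-glutamate carrier, rose in B3AR-Tg, and no gene of the list fell (edgeR quasi-likelihood test, Benjamini-Hochberg adjusted p under 0.05 over 10945 tested genes). The background was 4.91% of all tested genes called in either direction, 2.03% higher and 2.88% lower, so 2 of 31 was close to what the whole table showed. The other 29 did not pass. Fold changes were small and mostly of 1 sign. The log2 fold change was positive for 27 of 31 genes, with a median of 0.11, while 51.1% of all tested genes were positive and their median was 0.01. For 19 of the 31 the log2 fold change lay between 0.05 and 0.20, where the median standard error over the list was 0.09. Some of these were below their standard error (as Mdh1, 0.06, SE 0.09) and others above it (as Fh1, 0.17, SE 0.08). An unadjusted p under 0.05 was reached by 7 genes (Ogdh, Suclg2, Sdha, Sdhc, Fh1, Slc25a12 and Me2), against 19.3% of all tested genes. Of these 6 were higher, against 8.71% of all, and 1 was lower. Groups without overlap were not seen: the lowest B3AR-Tg animal exceeded the highest WT animal for 0 of the 31 genes, against 0.201% of tested genes, and the highest B3AR-Tg animal was under the lowest WT animal for 0, against 0.247%.

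**Figure D1:**
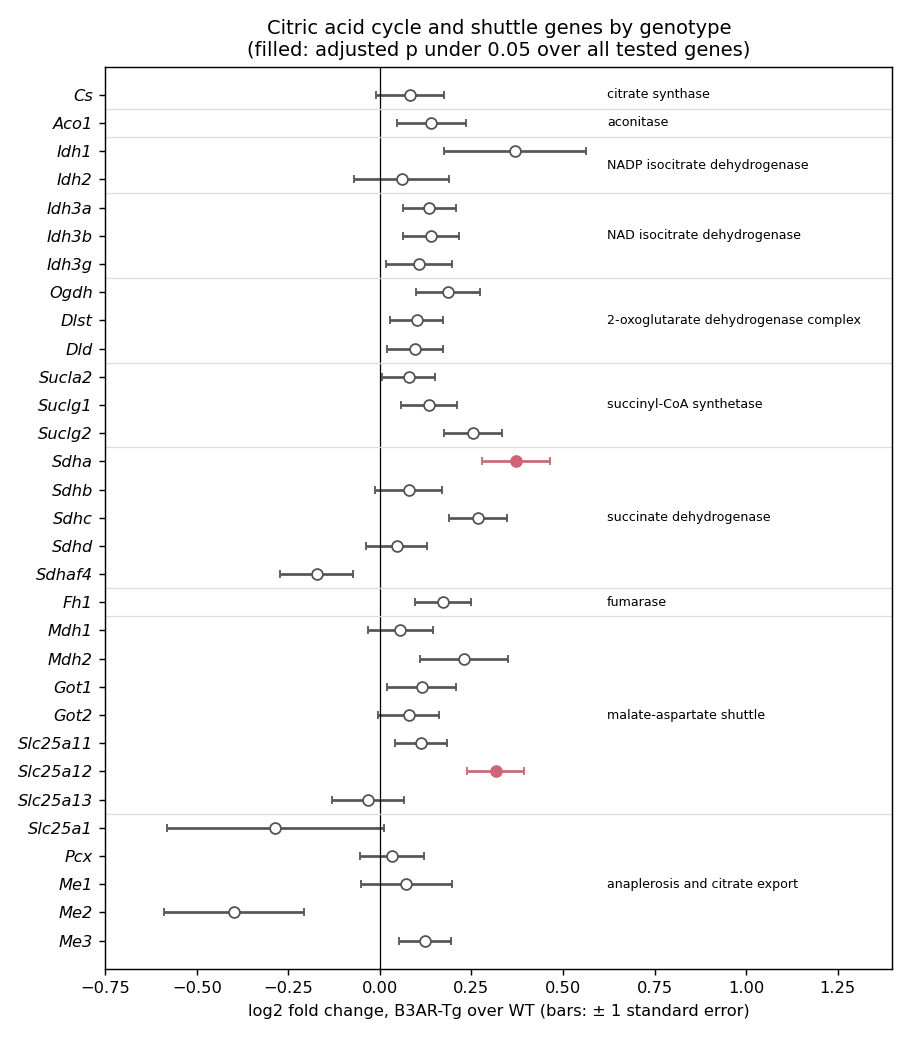
Log2 fold change of each of the 31 genes in B3AR-Tg over WT (horizontal axis) with 1 standard error on each side, grouped by role, 8 animals per genotype. Filled points mark Sdha (0.37) and Slc25a12 (0.32), the only genes with an adjusted p under 0.05; 27 of 31 points lie to the right of 0.

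**Figure D2:**
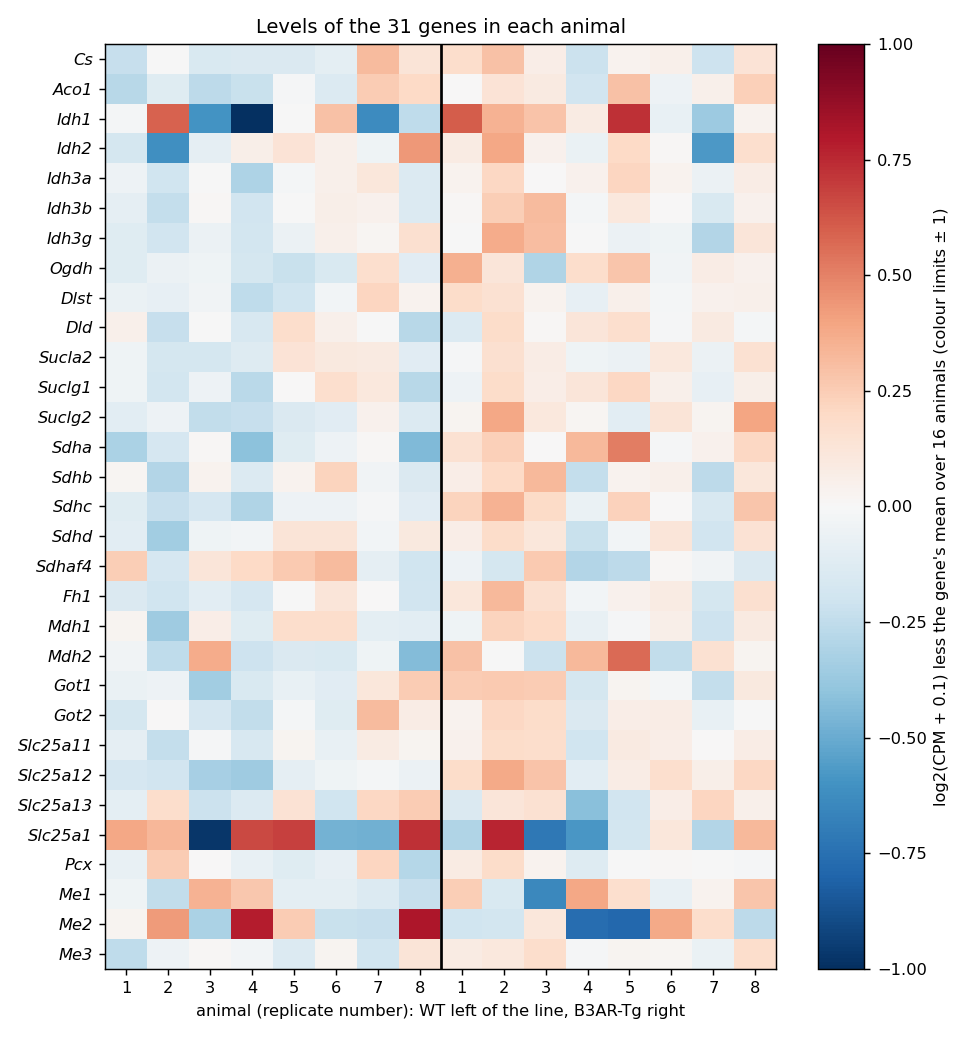
Level of each gene (rows) in each animal (columns), as log2(CPM + 0.1) centred on each gene over the 16 animals, with colours limited to 1 log2 unit either way. Most genes are slightly lower on the WT side, B3AR-Tg replicates 4 and 7 resemble WT animals for many genes, and Idh1, Slc25a1 and Me2 vary most between animals of the same genotype.

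The mean of the 31 genes, as log2 CPM centred on each gene, lay between −0.13 and 0.01 in WT and between −0.08 and 0.20 in B3AR-Tg, where replicates 4 and 7 were the lowest and within the WT range. These 2 libraries also had the highest level of fibroblast and endothelial markers of their group. When the mean log2 level of those markers was added to the model, 0 members passed (5 of all genes did), 12 of 31 were positive and the median log2 fold change was −0.03. That marker level lay between −0.06 and 1.15 log2 units in WT and between −1.50 and 0.21 in B3AR-Tg, and overlapped only through B3AR-Tg replicates 4 and 7, so genotype and marker level cannot be told apart here. With scaling by library totals alone, 5 members passed, all higher, but the median of all genes rose to 0.08 and higher calls made up 67.7% of all calls in place of 41.3%.

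At the entry of the cycle no gene passed. Citrate synthase, Cs, which joins acetyl-CoA to oxaloacetate, had a lowest, median and highest level of 576, 621 and 841 CPM in WT and of 581, 702 and 829.3 CPM in B3AR-Tg. The ranges overlapped almost fully, and the log2 fold change was 0.08 (SE 0.09, adjusted p = 0.678). Aco1 encodes the cytosolic aconitase, which also serves as iron regulatory protein when it lacks its iron-sulfur cluster. It was at 29.0 ± 4.26 CPM in WT animals and 31.9 ± 3.41 CPM in B3AR-Tg (adjusted p = 0.440).

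Isocitrate dehydrogenase comes in a NAD-linked mitochondrial form, built from Idh3a, Idh3b and Idh3g, and in NADP-linked forms, Idh1 in the cytosol and Idh2 in mitochondria. The 3 NAD-linked subunits had nearly the same log2 fold change, 0.13, 0.14 and 0.11, with adjusted p-values of 0.326, 0.337 and 0.544. Idh2 was one of the most abundant genes of the list, at 1468 ± 289 CPM in WT animals and 1530 ± 270 CPM in B3AR-Tg (adjusted p = 0.848).
Idh1 varied more among WT animals than any other gene of the list but Slc25a1. Its lowest, median and highest levels were 35.8, 67.4 and 111.2 CPM in WT and 57.5, 84.0 and 122.6 CPM in B3AR-Tg. WT replicate 4 was lowest and WT replicate 2 highest of the WT animals, and the groups overlapped widely. Its coefficient of variation was 36.6% in WT, against 7.72% to 9.39% for the NAD-linked subunits, and the log2 fold change of 0.37 (SE 0.19) was as large as that of Sdha but did not pass (adjusted p = 0.310), and it was 0.10 with the other-cell marker level in the model.

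The 2-oxoglutarate dehydrogenase complex, which makes succinyl-CoA, consists of Ogdh, Dlst and Dld, the last of which also serves the pyruvate and branched-chain complexes. Ogdh was at 974, 1045 and 1278 CPM (lowest, median, highest) in WT and at 924, 1216 and 1450 CPM in B3AR-Tg. The lowest animal of all was B3AR-Tg replicate 3, yet 7 of 8 B3AR-Tg animals exceeded the WT median. The log2 fold change was 0.19 (SE 0.09, unadjusted p = 0.0479, adjusted p = 0.253 by edgeR). Dlst and Dld had log2 fold changes of 0.10 each and adjusted p-values of 0.474 and 0.521.

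Succinyl-CoA synthetase couples the next step to the making of a nucleotide triphosphate. Its alpha subunit Suclg1 pairs with Sucla2 in the ATP-forming enzyme and with Suclg2 in the GTP-forming one. Suclg2 stood at 157, 171 and 192 CPM in WT (lowest, median, highest) and at 173, 195 and 245 CPM in B3AR-Tg. All 8 B3AR-Tg animals were above the WT median, with replicates 2 and 8 the highest. The ranges overlapped. WT replicate 7 was slightly above B3AR-Tg replicates 1, 4 and 7, which were near 189 CPM. B3AR-Tg replicate 5, at 173 CPM, was lower still and also below WT replicate 2 at 180 CPM. The log2 fold change of Suclg2 was 0.25 (SE 0.08) with an adjusted p of 0.0725 in edgeR, so it did not pass. DESeq2 gave an adjusted p of 0.0266 and limma voom one of 0.0473. With the other-cell marker level in the model the log2 fold change was 0.19 (edgeR adjusted p = 0.570). Sucla2, the more abundant subunit, had a log2 fold change of 0.08 (adjusted p = 0.591) and Suclg1 one of 0.13 (adjusted p = 0.362).

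Succinate dehydrogenase is both a cycle enzyme and complex II of the respiratory chain. It is made of the flavoprotein Sdha, the iron-sulfur protein Sdhb and the membrane anchors Sdhc and Sdhd, and Sdhaf4 is a factor that helps Sdha assemble with Sdhb. Sdha was at 492.6, 605 and 674 CPM (lowest, median, highest) in WT and at 661, 758 and 955 CPM in B3AR-Tg. The groups met only at the edge. WT replicates 3 and 7 were level with B3AR-Tg replicates 3 and 6, and B3AR-Tg replicates 4 and 5 were the highest. Sdha rose by 0.37 on the log2 scale (SE 0.09, 1.29-fold, adjusted p = 0.0249).

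The remaining subunits did not follow Sdha evenly. Sdhc was at 242, 274 and 296 CPM in WT and at 267, 344 and 378 CPM in B3AR-Tg (lowest, median, highest). Of the B3AR-Tg animals, 7 lay above the WT median, and only replicates 4 and 7 lay within the WT range. Its log2 fold change of 0.27 (SE 0.08) had an adjusted p of 0.0557 in edgeR, 0.0151 in DESeq2 and 0.0462 in limma voom. With the other-cell marker level in the model it was 0.03 (adjusted p = 0.947). Sdhb and Sdhd overlapped over most of their ranges, with log2 fold changes of 0.08 (adjusted p = 0.686) and 0.05 (adjusted p = 0.812). In single animals the subunits could part company. B3AR-Tg replicate 4 had one of the highest levels of Sdha, 836 CPM, with Sdhb at 557 CPM, while replicate 3 had Sdha at 671 CPM and the highest Sdhb of all 16 animals, 820 CPM. Sdhaf4 leaned the other way, at 26.7 CPM in the median WT animal and 22.4 CPM in the median B3AR-Tg animal (log2 fold change −0.17, SE 0.10, adjusted p = 0.363). The differences between subunits were not tested.

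**Figure D3:**
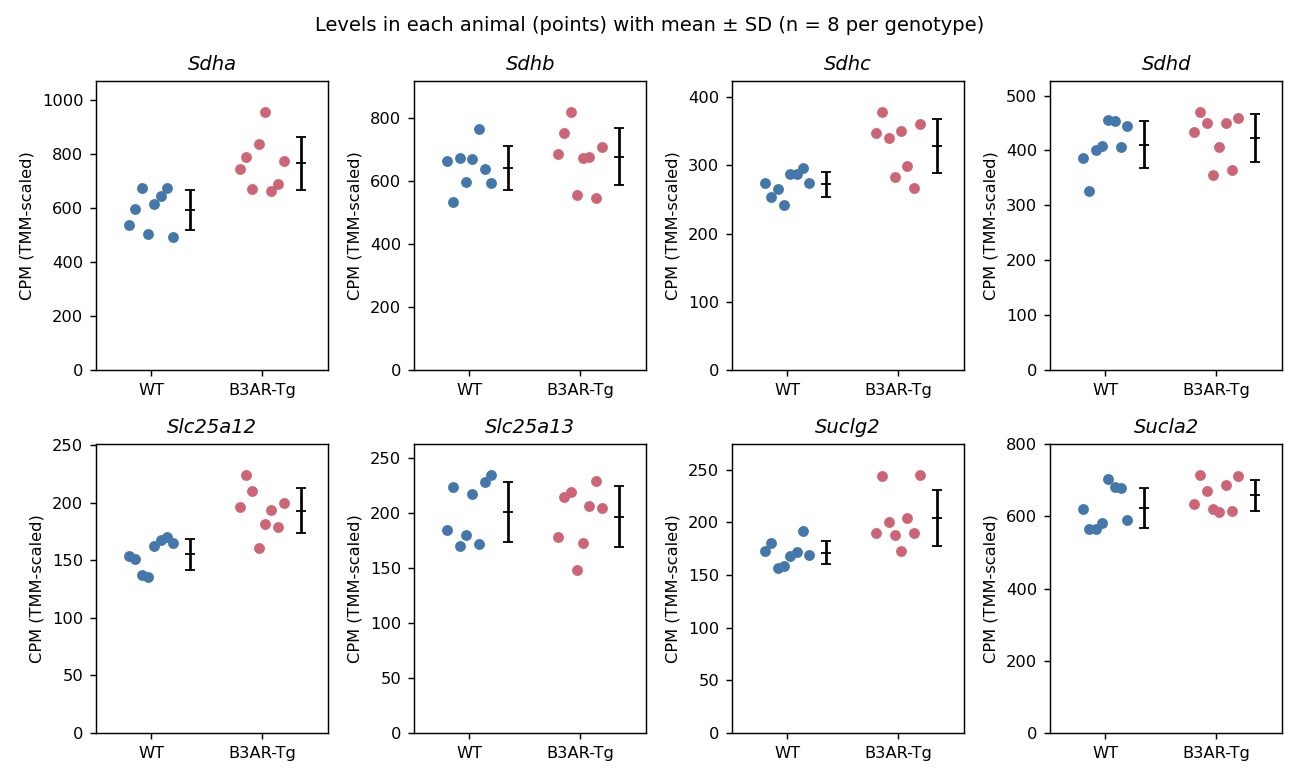
Level of 8 genes in each animal (points, CPM, axes from 0) with the mean and SD of 8 animals per genotype. Sdha and Slc25a12 are shifted upward in B3AR-Tg with ranges that meet at the edge, whereas Sdhb, Sdhd and Slc25a13 overlap over most of their ranges. For Sucla2 the lowest B3AR-Tg animal (612.5 CPM) lies above the WT median.

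The call of Sdha was sensitive to single libraries. Its adjusted p was 0.0512 without WT replicate 1, 0.0593 without WT replicate 4, 0.0501 without WT replicate 8 and 0.0585 without B3AR-Tg replicate 5, with a log2 fold change of at least 0.32 in each. With the other-cell marker level in the model it was 0.25 (adjusted p = 0.509).

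Fumarase, Fh1, which hydrates fumarate to malate, was at 289, 305 and 362 CPM in WT and at 295, 356 and 415 CPM in B3AR-Tg (lowest, median, highest). The ranges overlapped over most of their span. The log2 fold change was 0.17 (SE 0.08, unadjusted p = 0.0340, adjusted p = 0.218 by edgeR).

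In the malate-aspartate shuttle, malate dehydrogenases and aspartate aminotransferases work as cytosolic and mitochondrial pairs (Mdh1 with Mdh2, Got1 with Got2), Slc25a11 exchanges malate for 2-oxoglutarate, and Slc25a12 (aralar) and Slc25a13 (citrin) export aspartate in exchange for glutamate in calcium-regulated fashion. Slc25a12 was the only gene of the 7 to pass. It was at 135, 158 and 170 CPM (lowest, median, highest) in WT and at 161, 195 and 225 CPM in B3AR-Tg. All B3AR-Tg animals but replicate 4 lay above all WT animals. Slc25a12 rose by 0.32 on the log2 scale (SE 0.08, 1.24-fold, adjusted p = 0.0228). Without WT replicate 4 the adjusted p was 0.0532, and with the other-cell marker level in the model the log2 fold change was 0.14 (adjusted p = 0.658).

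The other carriers and the enzymes of the shuttle did not pass. Slc25a13 was at 201 ± 27.2 CPM in WT animals and 197 ± 27.6 CPM in B3AR-Tg. Its log2 fold change was −0.03 (SE 0.10, adjusted p = 0.899) and turned to 0.04 with library totals alone. Slc25a11 had a log2 fold change of 0.11 (adjusted p = 0.415). Per kilobase of the principal transcript Slc25a12, whose transcript is 6351 bases long, was at 24.5 ± 2.11 CPM in WT and Slc25a13 at 64.4 ± 8.72 CPM, so citrin was the more abundant of the pair on that scale. Mdh1 was the most abundant gene of the list per kilobase, at 935 ± 111 CPM in WT, and did not differ beyond its spread from Idh2 at 841 ± 166 CPM. Its log2 fold change was 0.06 (adjusted p = 0.779). Mdh2 varied more, between 171 and 298 CPM among WT and between 194 and 340 CPM among B3AR-Tg animals, where replicates 1, 4 and 5 were high. Its log2 fold change was 0.23 (SE 0.12, adjusted p = 0.303). Got1 and Got2 had log2 fold changes of 0.11 (adjusted p = 0.541) and 0.08 (adjusted p = 0.650).

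None of the 5 genes of anaplerosis and citrate export passed. Pyruvate carboxylase, Pcx, which makes oxaloacetate from pyruvate, was at 17.6 ± 2.24 CPM in WT animals and 18.0 ± 1.11 CPM in B3AR-Tg (adjusted p = 0.880). The citrate carrier Slc25a1 held only 5 to 25 counts per library, so its log2 fold change of −0.29 (SE 0.30, adjusted p = 0.639) says little at this depth. The malic enzymes interconvert malate and pyruvate, Me1 in the cytosol and Me2 and Me3 in mitochondria. Me1 and Me3 had log2 fold changes of 0.07 (adjusted p = 0.803) and 0.12 (adjusted p = 0.354). A pseudogene copy of Me1, Gm7049, is 98.4% identical over 1716 bases and held 640 counts against 9015 of Me1, so reads may be split between them. Me2 was at 10.2, 14.1 and 22.3 CPM in WT (lowest, median, highest) and at 7.34, 11.1 and 16.5 CPM in B3AR-Tg. WT replicates 4 and 8 were the highest and B3AR-Tg replicates 4 and 5 the lowest. The log2 fold change of −0.40 (SE 0.19) was the largest of the list in size and did not pass (unadjusted p = 0.0489, adjusted p = 0.256 by edgeR). With the other-cell marker level in the model it was −0.03 (adjusted p = 0.981).

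Paired isoenzymes were then compared within each animal as log2 ratios of their counts, which need no scaling between libraries. Of 7 pairs, 2 differed with genotype by an exact two-sided permutation test over the 12870 splits of the animals, adjusted over the 7. The log2 ratio of Slc25a12 to Slc25a13 was −0.56, −0.41 and −0.04 (lowest, median, highest) in WT and −0.35, 0.02 and 0.14 in B3AR-Tg. B3AR-Tg replicate 7 lay among the WT animals and WT replicate 6 among the B3AR-Tg animals. The other-cell marker level was −0.06 in WT replicate 6, the lowest of WT, and 0.06 in B3AR-Tg replicate 7. B3AR-Tg replicate 4 had the highest marker level of its group, 0.21, with a ratio of 0.12. The part of the marker level in the ratio was not tested. The mean ratio was higher by 0.35 in B3AR-Tg (exact permutation p = 0.00186, adjusted p = 0.0131), and over the removal of each animal the exact permutation adjusted p lay between 0.00435 and 0.0250.

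The log2 ratio of Sucla2 to Suclg2, the ATP-forming over the GTP-forming subunit, was 1.65, 1.85 and 2.06 (lowest, median, highest) in WT and 1.54, 1.73 and 1.83 in B3AR-Tg. All B3AR-Tg animals lay below the WT median, and WT replicate 2 was lower than most of them. The mean ratio was lower in B3AR-Tg by a difference of −0.17 (exact permutation p = 0.00932, adjusted p = 0.0326). The part of the other-cell marker level in this ratio was not tested either. Over the removal of each animal the difference ranged from −0.20 to −0.14. The exact permutation adjusted p was between 0.0522 and 0.0712 without WT replicate 1, 3, 4, 5 or 6 or B3AR-Tg replicate 2, 4, 7 or 8.

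The other 5 pairs did not pass. Idh1 to Idh2 had a mean log2 ratio of −4.49 ± 0.716 among WT and −4.14 ± 0.258 among B3AR-Tg animals (adjusted p = 0.501 by exact permutation). WT replicate 2 stood apart with the highest Idh1 and the lowest Idh2 of its group, and without it the difference was 0.55 in place of 0.35 (exact permutation adjusted p = 0.0363). For Mdh1 to Mdh2 the difference was −0.16 (adjusted p = 0.535 by exact permutation), with ratios spread from 2.55 to 3.54 in B3AR-Tg. It was −0.09 without B3AR-Tg replicate 5. Idh3b to Idh3g, Got1 to Got2 and Me1 to Me3 differed by 0.04, 0.03 and −0.07, each with an exact permutation adjusted p of 0.694.

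**Figure D4:**
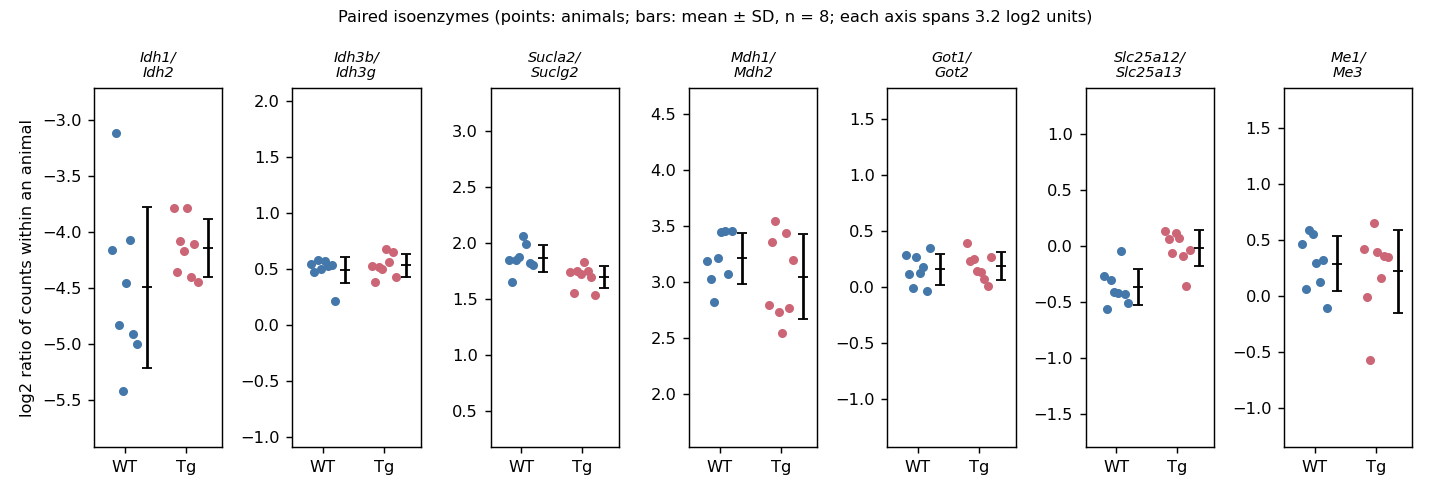
Log2 ratio of the counts of 2 isoenzymes or subunits within each animal (points), with mean and SD of 8 animals per genotype (Tg stands for B3AR-Tg); each vertical axis spans 3.2 log2 units. Slc25a12 to Slc25a13 is higher in B3AR-Tg by 0.35 and Sucla2 to Suclg2 differs by −0.17, while Idh1 to Idh2 is widely spread in WT.

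Variation with load was examined apart from genotype, by the slope of each gene on the level of Nppa, the atrial natriuretic peptide gene that rises in loaded ventricles, among animals of 1 genotype. In WT, Nppa lay between 78.4 and 330.0 CPM in 5 animals and between 1076 and 1349 CPM in 3 (replicates 2, 4 and 8). The slope therefore draws largely on the difference between these 2 sets of animals, and slopes within either set were not tested. Of all genes 3.12% passed in WT, 2.23% with a positive and 0.895% with a negative slope. Me2 was the 1 member of 31 to pass. It was at 17.2 CPM or higher in the 3 WT animals with high Nppa and at 15.2 CPM or lower in the other 5, without overlap. Its log2 level rose by 0.23 per doubling of Nppa (SE 0.05, edgeR adjusted p = 0.0291). The marker level of other cells in these 3 animals, 0.75 to 1.15 log2 units, was also the highest of the WT animals, and its part in the slope was not tested. The adjusted p of the Me2 slope was 0.0847 without WT replicate 3, 0.0795 without replicate 4, 0.0821 without replicate 6, 0.135 without replicate 8 and 0.0633 with Myh7, another load marker, in place of Nppa.

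No negative slope in WT passed. Of the 31 genes, 20 had a negative slope, against 50.2% of all tested genes, and 8 had an unadjusted p under 0.05 with a negative slope, against 8.2% of all. With Me2 that made 9 of 31 in either direction, against 18.1% of all. These 8 were Idh3a, Idh3b, Dld, Suclg1, Sdha, Sdhb, Mdh1 and Mdh2, with slopes between −0.10 and −0.06 per doubling of Nppa and edgeR adjusted p-values between 0.138 and 0.261. Slc25a12 had a slope of −0.02 (adjusted p = 0.822). Among B3AR-Tg animals, where Nppa lay between 5.76 and 120.3 CPM, 0 of all genes passed at an adjusted p under 0.05 in edgeR and 4.62% had an unadjusted p under 0.05. Of the members 26 had a negative slope, against 50% of all tested genes. These slopes lean on single animals, since Nppa was at 120.3 CPM in B3AR-Tg replicate 7 and next highest at 50.3 CPM in replicate 3. Replicate 7 also had the lowest mean of the 31 genes in its group (−0.08) and a high other-cell marker level (0.06). The part of this library and of the marker level in the count of negative slopes was not tested. Idh1 had the only unadjusted p under 0.05 (slope −0.18, edgeR adjusted p = 0.9998), against 2.92% of all genes with such a p and a negative slope. No difference between the slopes of the 2 genotypes passed, for Me2 (adjusted p = 0.897) or any other gene, while 6.68% of genes had an unadjusted p under 0.05 for that difference.

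**Figure D5:**
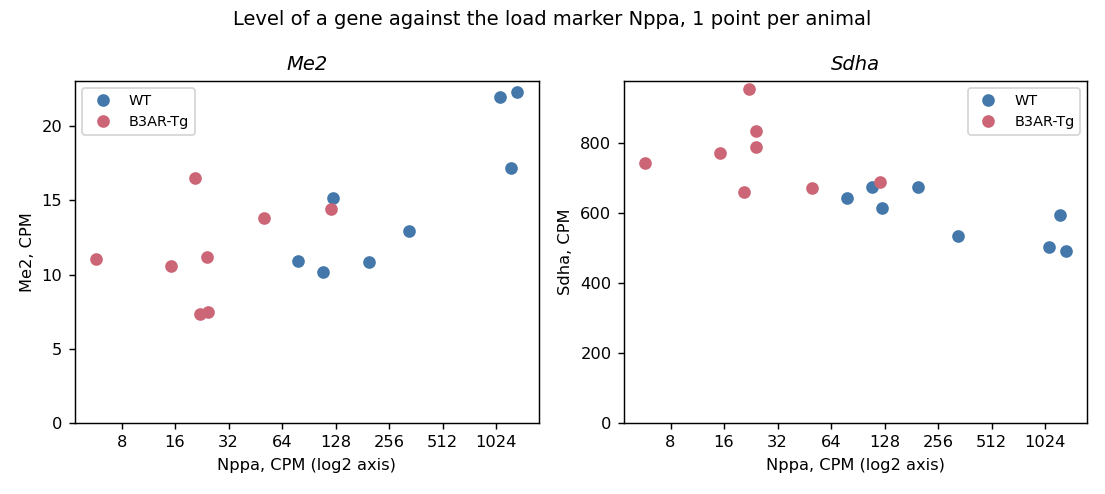
Level of Me2 (left) and Sdha (right) in CPM against Nppa in CPM (log2 axis), 1 point per animal, coloured by genotype. Within WT, Me2 is highest in the 3 animals with Nppa at 1076 CPM or more, and Sdha is at or below 595 CPM in the same 3 animals and in WT replicate 1.

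Genes around the cycle were taken from a separate list of 56 symbols, 47 of which passed the low-count filter. Of their 48 tested rows (Nnt has 2) 3 rose and 1 fell, with a median log2 fold change of 0.03, against 2.03% higher and 2.88% lower among all tested genes. The list included lipoylation enzymes, complex II assembly factors, mitochondrial carriers and pyruvate dehydrogenase, of which none passed. Gpt, the cytosolic alanine aminotransferase that turns alanine and 2-oxoglutarate into pyruvate and glutamate, was at 15.1, 18.8 and 30.3 CPM (lowest, median, highest) in WT and at 26.9, 32.6 and 46.6 CPM in B3AR-Tg. The ranges overlapped between 26.9 and 30.3 CPM, and all 8 B3AR-Tg animals were above the WT median. Gpt rose by 0.79 on the log2 scale (SE 0.15, adjusted p = 0.00507), and its adjusted p was at most 0.0134 when any 1 animal was removed. With the other-cell marker level in the model its log2 fold change was 0.43 (adjusted p = 0.423).

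The other 3 genes passed by narrower margins. Aldh5a1, which oxidises succinic semialdehyde to succinate, rose by 0.43 (SE 0.11, adjusted p = 0.0290), from 19.0 ± 3.81 to 25.6 ± 2.95 CPM. D2hgdh, which oxidises D-2-hydroxyglutarate to 2-oxoglutarate, rose by 0.31 (SE 0.09, adjusted p = 0.0406), from 24.6 ± 2.78 to 30.5 ± 3.10 CPM. All 8 B3AR-Tg animals were above the WT median for both. Gpd1, the cytosolic enzyme of the glycerol phosphate shuttle, which is the other route for cytosolic NADH, fell by 0.57 (SE 0.16, adjusted p = 0.0454). It was at 24.0, 43.5 and 67.6 CPM (lowest, median, highest) in WT and at 24.4, 31.3 and 42.0 CPM in B3AR-Tg, where all 8 animals lay below the WT median. Its mitochondrial partner Gpd2 had a log2 fold change of 0.25 (adjusted p = 0.349). The 3 calls depended on single libraries. Aldh5a1 lost its call without WT replicate 1, 2, 4, 6 or 8 or B3AR-Tg replicate 5 or 8 (adjusted p at most 0.0680). D2hgdh lost it without WT replicate 1, 4, 5, 6 or 8 or B3AR-Tg replicate 2, 4, 5, 6 or 8 (at most 0.0880). Gpd1 lost it without any 1 animal except WT replicates 3 and 7 and B3AR-Tg replicate 3 (at most 0.0975), and also with library totals alone (0.113) and without the low-count filter (0.0504). Without that filter D2hgdh had an adjusted p of 0.0522. With the other-cell marker level in the model none of the 3 passed. The log2 fold change was then 0.41 for Aldh5a1 (adjusted p = 0.387), 0.28 for D2hgdh (adjusted p = 0.453) and −0.39 for Gpd1 (adjusted p = 0.612), so for the first and second of these it was nearly as large as without the marker level.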

How the data were processed

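Ventricular myocyte RNA of 16 mice was depleted of ribosomal RNA and sequenced as stranded, paired-end libraries, per the labels' protocols. The authors deposited whole-number counts per gene, 1 column per animal, with no normalization. Salmon and the build GRCm39 are named in the submitters' processing notes, without role or version, so the counts may be rounded estimates; strand setting and annotation release are not given in the sources used here. Every column matched 1 animal by the name in its title.

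Genotypes were compared with edgeR 4.0.16 (R 4.3.3) by the quasi-likelihood test, with TMM scaling and filterByExpr (minimum count 10, minimum total 15), on genotype alone. P-values were adjusted by Benjamini-Hochberg over 10945 genes and are two-sided, with a threshold of 0.05. Standard errors are the log2 fold change over the square root of F. The replicates are biological replicates per the labels. Slopes on log2 CPM of Nppa (prior count 2) were fitted in the same way within each genotype, and the difference of slopes over all animals. Ratios used log2 of counts plus 0.5. Alternatives were other scalings, no filter, DESeq2 1.42.0, limma 3.58.1 (voom with sample weights), a replicate block, the other-cell marker covariate, removal of mitochondrially encoded genes, and removal of each animal. Adding the counts of pseudogene copies (BLAST 2.17.0, at least 90% identity over 300 bases) was chosen after seeing the data. Transcript lengths are from GENCODE M21 on GRCm38.

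All 31 members are named. Of the wider list, up to 6 genes per direction past the threshold are named, and Gpd2 beside its partner Gpd1, a choice made after their values were seen. The members and lists were chosen with earlier results of these data known. The tests were also run on simulated counts with known changes. They missed many of the smaller changes there. The share of false calls among those simulated calls was above the threshold, most so for the slope test.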

Additional observations from a re-analysis of the deposited data

Results flagged for a closer look

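In groups of 8 animals, the highest or lowest value was compared with its nearest neighbour, and 5 of the 76 groups searched (31 genes and 7 ratios in each genotype) had a gap that took more of the group's range than Dixon's 95% critical value of 0.526. Chance gives about 1 in 20 groups, or 3.8. Idh2 was low in B3AR-Tg replicate 7, at 989 CPM, while the other 7 animals held 1410 to 1928 CPM. Ogdh was high in WT replicate 7, at 1278 CPM against 974 to 1100 CPM. Slc25a11 was low in B3AR-Tg replicate 4, at 313 CPM against 361 to 409 CPM, and that library was the shallowest of the series, with 5985335 counts. The log2 ratio of Idh3b to Idh3g was low in WT replicate 8, at 0.21 against 0.47 to 0.58. The log2 ratio of Slc25a12 to Slc25a13 was low in B3AR-Tg replicate 7, at −0.35 against −0.09 to 0.14. Genes were compared on log2(CPM + 0.1).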

How the results depend on the processing

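Over 26 alternatives, 14 of the 31 members kept the sign of their log2 fold change and 17 did not in at least 1. The number of members called, all higher, was 5 with library size only (Fh1, Sdha, Sdhc, Slc25a12 and Suclg2), 4 with DESeq2 and 4 with limma voom (Sdha, Sdhc, Slc25a12 and Suclg2), 0 with the replicate block, 0 with the other-cell marker covariate, and between 0 and 3 when 1 animal was removed, in place of 2; it was 0 without WT replicate 4 and 1 without WT replicate 1 or 8 or B3AR-Tg replicate 5. Over all genes, the calls were 346 higher and 165 lower with library size only, 840 in all and 511 lower with DESeq2, 230 (93 higher, 137 lower) with the replicate block, 5 (4 higher, 1 lower) with the covariate, and 272 to 675 (113 to 278 higher, 159 to 397 lower) without 1 animal, in place of 537 (222 and 315); 272 was without WT replicate 4, 277 without B3AR-Tg replicate 5 and 345 without B3AR-Tg replicate 8. The cause of these shifts was not tested.

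With the covariate the median of the members was −0.032, and the sign turned for Cs (−0.039), Idh2 (−0.26), Idh3a (−0.037), Idh3b (−0.095), Idh3g (−0.10), Dld (−0.058), Sucla2 (−0.053), Suclg1 (−0.053), Sdhb (−0.25), Sdhd (−0.18), Fh1 (−0.060), Mdh1 (−0.22), Got1 (−0.0093), Got2 (−0.013), Slc25a11 (−0.049), Slc25a13 (0.014) and Pcx (−0.0025), none of which passed in either fit. Library size only gave 0.035 for Slc25a13. Without 1 animal, log2 fold changes spanned −0.0066 to 0.13 for Idh2, −0.0034 to 0.082 for Pcx and −0.067 to 0.018 for Slc25a13.

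Replicate numbers belong to different animals, and the correlation of same-numbered deviations ran from −0.22 to 0.09, with 0 of 8 WT animals closest to their own number, so the samples share only a number. With the replicate block the edgeR adjusted p was 0.0972 for Sdha and 0.0722 for Slc25a12. For the ratios the block test flipped the signs of the 8 same-numbered differences, with far fewer arrangements than the 12870 splits. By these exact sign flips the adjusted p was 0.0547 for both Slc25a12 to Slc25a13 (0.35) and Sucla2 to Suclg2 (−0.17). All same-numbered differences of Sucla2 to Suclg2 were negative, so its p before adjustment was the smallest this test can give. Without 1 animal the ratio differences ran from −0.20 to −0.14 for Sucla2 to Suclg2, 0.22 to 0.55 for Idh1 to Idh2, −0.24 to −0.09 for Mdh1 to Mdh2, −0.0019 to 0.055 for Got1 to Got2, −0.0014 to 0.059 for Idh3b to Idh3g and −0.13 to 0.045 for Me1 to Me3. Members that passed with a positive slope on Nppa in WT numbered 0 with Myh7 in its place and 0 to 1 without 1 animal. Adding pseudogene copies left the calls of Sdha and Slc25a12 in place.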
